A study of Mus musculus with 6 samples.

Results

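The genes described here carry a RIKEN clone name of the 1700 series, that is, a symbol made of 1700, 3 digits, a letter, 2 digits and Rik. They were found by this pattern in the gene symbols of the polyadenylation table, which gave 215 of 17132 genes. Of these, 167 had a protein-coding reference transcript (NM) and 48 a noncoding one (NR). By gene ID, 213 of the 215 were found in the RefSeq annotation of GRCm38.p6, where 160 are listed as protein coding and 46 as lncRNA, and where 86 now have another symbol. The measurements come from 3'READS, a method that sequences the 3' ends of poly(A)+ RNA and so places each cleavage and polyadenylation site (pA). Libraries were made from testes of FVB mice at 1 week (1w), 2w, 3w, 4w, 5w and 6w of age, with no genetic change or treatment named in the labels. There was 1 library per age, and how many animals each library holds is not given in the sources used here. The 3 libraries of 1-3w were set against the 3 of 4-6w, so the spread within a set holds both age and error, and any p-value measures only that spread.

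RIKEN clone names were given in the mouse full-length cDNA project to transcripts of unknown function, and clones whose name starts with 1700 came largely from an adult testis library. In the first wave of spermatogenesis after birth, germ cells enter meiosis together, pass through pachytene and become round and then elongating spermatids, so that testes of increasing age hold increasingly late germ cells. Haploid cells express many genes that no other tissue uses, among them genes for the flagellum, the acrosome and sperm chromatin. In bulk tissue, fewer cells of a type and less RNA per cell cannot be told apart.

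Cleavage usually follows a polyadenylation signal, AATAAA or its variant ATTAAA, shortly before the pA. The 7 sequences below are those before the most used pA of 5 members with very many reads and of 2 members, 1 NR and 1 NM, with some of the largest differences between the age sets. Each is 30 bases of mm9, written 5' to 3' on the strand of the gene, from 36 to 7 bases before the pA, with the AATAAA or ATTAAA in capitals.
1700017D01Rik, leading pA, chr19:11171310-11171339, minus strand: ctcattctgtAATAAAggatgcaatctgat
1700027A23Rik, leading pA, chr3:105799881-105799910, minus strand: accctccaaatacataaaggctggttcaga
1700102P08Rik, leading pA, chr9:108300066-108300095, plus strand: atccctggaaaAATAAAaatccaggaacca
1700086L19Rik, leading pA, chr12:75396902-75396931, plus strand: taaaatgaATTAAAaagtaactgttaagtt
1700008K24Rik, leading pA, chr17:49251595-49251624, minus strand: tgtatgggagacccAATAAAgacttttgca
1700027A15Rik, leading pA, chr1:73072046-73072075, plus strand: tctctaAATAAAacctcttctttctcggaa
1700015G11Rik, leading pA, chr7:59267061-59267090, minus strand: ggccattctgcaaAATAAAaactgagcttg

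In 6 of these 7 a signal lies within the printed window. In 1700027A23Rik neither hexamer does. This gene is now called Pifo, and its protein acts at the base of cilia.

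The next 12 sequences are the proximal and distal pAs (Prx-pA and Dis-pA, the 2 last-exon pAs with most reads) of 6 members that passed the test for a lower Dis-pA to Prx-pA ratio in 4-6w. They are printed in the same way, with any AATAAA or ATTAAA that lies wholly in the printed window in capitals.
1700025G04Rik, Prx-pA, chr1:153740371-153740400, minus strand: cctatgccccATTAAAttacagtgtttctt
1700025G04Rik, Dis-pA, chr1:153739721-153739750, minus strand: tttctaagaaAATAAAcattttgctgtttt
1700049G17Rik, Prx-pA, chr7:28697191-28697220, minus strand: attttcccaaacagagcataaagcaattaa
1700049G17Rik, Dis-pA, chr7:28693716-28693745, minus strand: agctagctggAATAAAgactttcattttga
1700017B05Rik, Prx-pA, chr9:57101369-57101398, minus strand: tcaggctgtggaataacaagactgaggttg
1700017B05Rik, Dis-pA, chr9:57100930-57100959, minus strand: ggggacagctATTAAAgcatttgggttgtt
1700013H16Rik, Prx-pA, chrX:51046180-51046209, minus strand: atttagaataacatccagttatgttagtat
1700013H16Rik, Dis-pA, chrX:51046083-51046112, minus strand: ttgagttgttatcagtaaaaatgattgaag
1700054N08Rik, Prx-pA, chr8:126366016-126366045, minus strand: ctggcttgtttatgaagacaagtccccaag
1700054N08Rik, Dis-pA, chr8:126364737-126364766, minus strand: atttaATTAAAgagtaagttctacatgttg
1700029F09Rik, Prx-pA, chr1:44143711-44143740, minus strand: aaataattgtcATTAAAagccatgttctga
1700029F09Rik, Dis-pA, chr1:44143464-44143493, minus strand: agttttgaaaaATTAAAcatttgcattttg

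At the Dis-pA, 5 of the 6 hold a hexamer in the printed window, the exception being 1700013H16Rik. At the Prx-pA, 1700025G04Rik and 1700029F09Rik do, each with ATTAAA. Within 40 bases before the pA, neither hexamer was found at the Prx-pA of 5 of all 11 members with a lower ratio, and at the Dis-pA of 1 of the 11. Among the 4270 genes tested, 46.2% had neither before the Prx-pA and 20.8% before the Dis-pA. A hexamer is a match of letters and not a measured site.

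Of the 793 pAs of the members, 8 are assigned to a second gene as well and were left out. This and the lack of a last-exon pA left 8 members without a value of their own, namely 1700001J11Rik, 1700010D01Rik, 1700018L02Rik, 1700024G13Rik, 1700029I01Rik, 1700030C10Rik, 1700031M16Rik and 1700101E01Rik. The other 207 are described by the reads of their last-exon pAs, given as reads per 1000000 reads of the library's total (RPM). In 3'READS each transcript gives a read at its end, so RPM compares genes without a correction for length. A further 8 members had fewer than 20 reads over the 6 libraries, which leaves 199 (158 NM and 41 NR) whose timing is described. The libraries held 3497870 to 5427850 reads assigned to single genes.

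Lists of markers place the libraries in the first wave. Summed RPM of 5 spermatid nuclear protein genes, the protamine and transition protein group, lay between 66.3 and 520 in the 1-3w libraries and between 83753 and 187084 in the 4-6w libraries, and 5 of 5 rose by edgeR's test. For 5 Sertoli cell genes the summed RPM lay between 52.0 and 309 in 1-3w and between 5.29 and 15.9 in 4-6w, and 5 of 5 fell. Genes of meiotic prophase summed to 1130 RPM at 1w and 10458 at 3w, genes of pachytene and later spermatocytes to 29.1 and 3793, and those of round spermatids to 5.44 and 267, with 482 in the 4w library. Spermatogonial genes summed to 191 RPM at 1w and 21.0 at 6w, and 2 of 4 tested fell. Those of peritubular, vascular and blood cells summed to 930 and 84.1 RPM, and 2 of 2 tested fell. For Leydig cell genes the summed RPM lay between 357 and 479 in 1-3w and between 222 and 440 in 4-6w, with 1 of 5 rising. The part of these shifts in cell content in the results on the 1700-series genes was not tested.

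The 1700-series genes were at very low levels in the youngest testes and were first high at 3w and 4w. From 1w to 6w their median levels were 0.435, 0.472, 10.4, 35, 40.8 and 51.0 RPM. The median over all 13553 genes with 20 or more reads ran the other way, with 13.5 RPM in the first library, 11.1 in the 3w library, 7.46 in the 4w library and 4.71 in the last. From 2w to 3w the members' median step was 2.86 on the log2 scale (0.5 RPM added), against -0.44 over all genes. From 3w to 4w it was 1.37 against -0.69, and the later steps were small, at 0.10 from 4w to 5w and 0.27 from 5w to 6w. At 1w, 134 of the 207 had a read, and 69 reached 1 RPM. At 2w, 128 had a read and 82 reached 1 RPM. At 6w, 206 had a read and 198 reached 1 RPM. Summed over members, these genes took 0.154% of all last-exon reads in the 1w library, 2.79% in the 3w library and 5.22% in the 6w library.

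**Figure D1:**
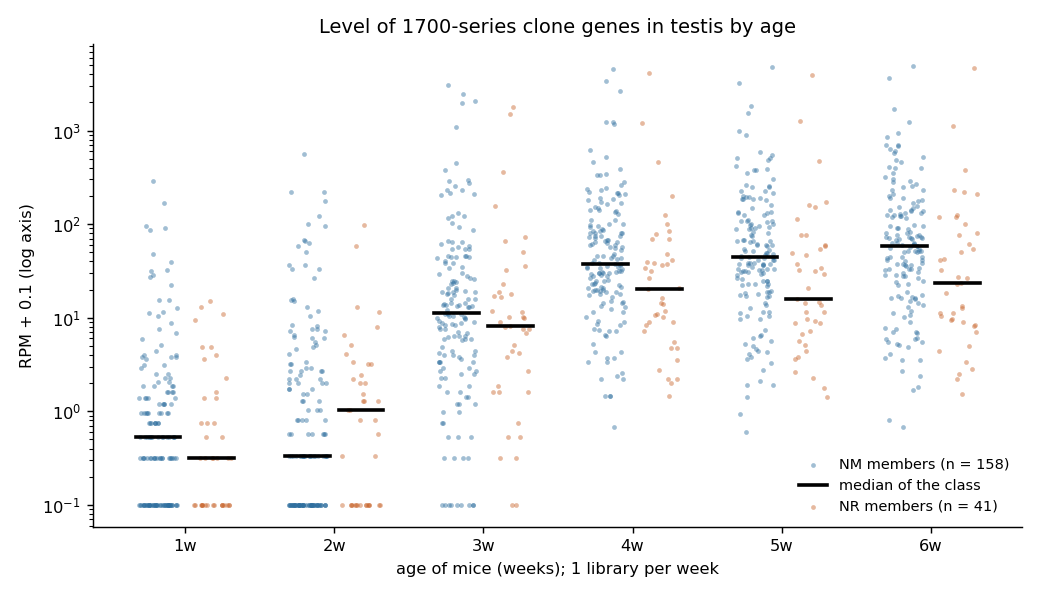
Level of each 1700-series gene with 20 or more reads, as RPM + 0.1 on a log axis, against age in weeks, with 1 library per week; each point is a gene, NM members in blue (n = 158) and NR members in orange (n = 41), and bars are medians of the class. The NM median at 1w, 3w and 6w is 0.435, 11.0 and 58.6 RPM, and the NR median is 0.217, 8.05 and 23.4 at the same ages.

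Most members were at their highest in the oldest testes. The highest RPM fell on 1w in 5 members, on 2w in 6, on 3w in 22, on 4w in 24, on 5w in 22 and on 6w in 120, which is 60.3% of the 199. In all, 83.4% had their highest level in 4-6w, against 20% of all genes. The level first reached 50% of its own peak at 3w in 56 members and at 4w in 93, whereas 13 reached it in the first week, 6 in the next and 31 in the fifth. By this measure 3w and 4w were the most frequent weeks of onset. No replicate of a week exists, so neighboring weeks with close values, such as 5w and 6w for many genes, cannot be ordered beyond counting error.

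Another RIKEN series with many testis clones, with names that start with the digits 4, 9 and 3 in this order, was taken as the nearest group for comparison and is called the second series. It has 229 genes, of which 160 NM and 44 NR had 20 or more reads. Of its NM genes 66.9% had their highest level in 4-6w, as did 77.3% of its NR genes. The NM genes of the second series had a median of 16.1 RPM at 6w, against 58.6 RPM for NM members of the 1700 series. These are descriptions, and no test of the difference between the series was made.

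**Figure D2:**
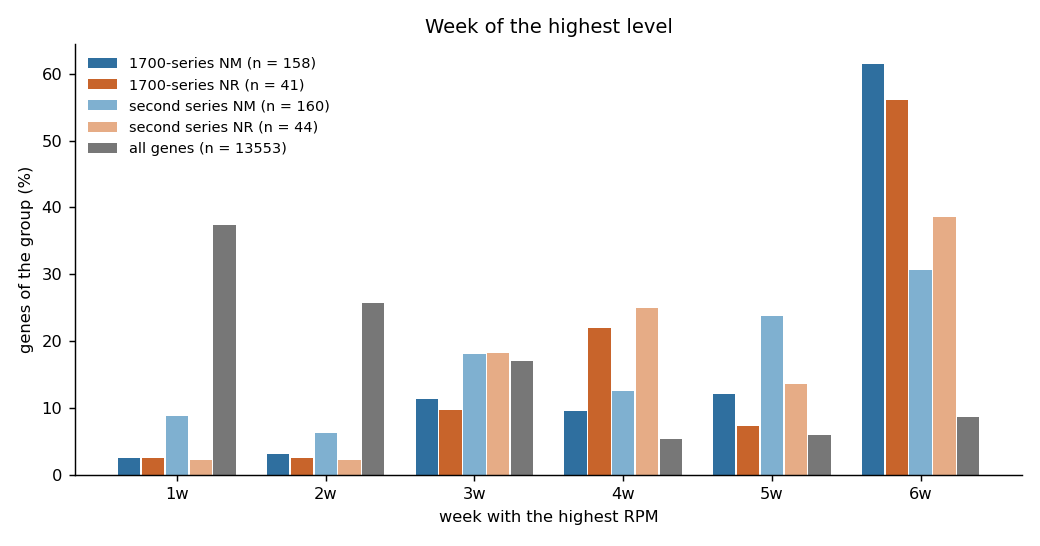
Percent of genes of each group (vertical axis, starting at 0) whose highest RPM fell in each week (horizontal axis), for NM and NR members of the 1700 series, NM and NR genes of the second series and all genes with 20 or more reads. The 6w bars of the 1700 series stand above the others, and the bars of all genes are tallest at 1w.

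Coding and noncoding members both had their highest median at 6w, but differed in level and in the weeks between. Medians of NM members were 0.435, 0.236, 11.0, 37.8, 44.8 and 58.6 RPM from 1w to 6w, and those of NR members were 0.217, 0.944, 8.05, 20.1, 15.8 and 23.4 RPM. The step from 3w to 4w had a median of 1.67 on the log2 scale in NM and 0.51 in NR members. From 4w to 5w the median step was close to 0 in both, at 0.12 in NM and 0.03 in NR members. The lower NR class median at 5w was thus not matched by a typical fall per gene. The highest week was 6w for 97 of 158 NM and 23 of 41 NR members. The level first reached 50% of the peak at 3w in 37 NM (23.4%) and 19 NR members (46.3%), and at 4w in 81 NM (51.3%) and 12 NR members (29.3%). Genes are not replicates of a class, and no test between NM and NR was made.

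Expression in 4-6w was compared with 1-3w by edgeR's quasi-likelihood test over all 11269 genes that passed its filter on low counts, with TMM scaling and Benjamini-Hochberg adjusted p-values at 0.05. Of the members, 190 passed the filter (153 NM and 37 NR). Of these, 109 rose and 0 fell. Among all genes tested, 17.7% rose and 22.5% fell. By class, 89 NM members (58.2% of those tested) and 20 NR members (54.1%) rose. In the second series 52.1% of 146 NM genes tested rose and 3.42% fell, with a median log2 difference of 3.54. Of its 31 NR genes tested 41.9% rose and 0 fell, with a median of 3.18. At an unadjusted p under 0.05, 0 members were lower. DESeq2, which gave a value for 180 members, also had 0 lower, with 137 higher. The median log2 difference of the members was 4.24 (4.56 for NM and 2.95 for NR), against -0.07 over all genes, and it was 4.15 with the 7 members that had no read in 1-3w placed at their lower bound. Over the 194 NR genes tested, members included, 37.1% rose and the median was 2.26.

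Members with little expression in 1-3w could pass the filter only through 4-6w. Of the 36 tested members with a mean under 1 RPM in 1-3w, 35 rose, and of the 154 others, 74 did. A narrower set is therefore given, the 61 members with at least 1 RPM in every library. Of these, 28 rose (45.9%) and 0 fell, with a median log2 difference of 2.37. Of the 8573 genes with 1 RPM in every library, 15.0% rose and 21.0% fell. By RPM alone, the 3 libraries of 4-6w were all above those of 1-3w in 138 of the 190 members and all below them in 6. Over all genes tested this held for 14.3% above and 60.6% below.

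The scale and the choice of libraries matter for these counts. TMM values are relative to the median gene, whose difference was -0.07, whereas with the library totals the median difference of all genes was -1.39. On library totals 101 members rose and 3 fell, namely 1700017B05Rik (log2 difference -1.35, edgeR adjusted p = 0.0164), 1700020O03Rik (-1.80, 0.00719) and 1700054N08Rik (-1.67, 0.0168). Of the 109 members called with TMM, 97 were called with totals, 12 were not, and 2 had a fitted difference below 0. The 3w library lies between the sets. Without it 187 members rose, and without the 2w, 4w, 5w or 6w library 42, 51, 18 and 23 did. Of the 109 calls, 18 held without each library in turn.

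Members whose reads were all or nearly all in 4-6w stand first. They passed the low-count filter only through 4-6w, so their calls partly restate the filter. 1700015G11Rik, an NM gene, had 0 reads in each library of 1-3w and 202, 477 and 837 in those of 4-6w. Its level in 4-6w was at least 372-fold higher in RPM, set against 3 reads over the 1-3w libraries, and the edgeR adjusted p was 0.00788. 1700080E11Rik, now Nudt16l2, likewise had 0 reads in the 3 younger libraries and 43, 103 and 158 in the 3 older ones (at least 74.6-fold, edgeR adjusted p = 0.0104). Neither gene's sets overlap, but both calls were lost without the 5w library.

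1700042G07Rik had 4, 0 and 2 reads in 1-3w and 669, 1583 and 2838 in 4-6w. The RPM ratio of the sets was 625, with a 95% counting interval of 287 to 1704, and the log2 difference was 10.57 ± 1.28 (SE, edgeR adjusted p = 0.0066). For 1700008P02Rik and for 1700011F03Rik, now Tex37, the RPM ratios were 940 (260 to 7762) and 860 (294 to 4173). These counting intervals take no account of variation between animals.

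Noncoding members showed the same pattern. 1700027A15Rik had 0, 0 and 1 reads in 1-3w and 163, 349 and 702 in 4-6w, a ratio of 894 with a counting interval of 160 to 35349 (edgeR adjusted p = 0.00659). 1700016P04Rik had 1, 1 and 2 reads and then 205, 463 and 834, with a log2 difference of 9.32 ± 0.88 (SE, edgeR adjusted p = 0.00641). These sets do not overlap, and each later week lies above the one before it from 4w to 6w. 1700096J18Rik and 1700125H03Rik had 0 reads in all 3 younger libraries and rose at least 57.5-fold and 23.6-fold. Like the coding genes above, they passed the filter only through 4-6w. Both calls were lost without the 5w library, and that of 1700125H03Rik also without the 6w library. 1700061F12Rik was already present at 3w, with 3, 0 and 41 reads in 1-3w and 522, 921 and 1464 in 4-6w, and its log2 difference was 6.79 ± 1.72 (SE, edgeR adjusted p = 0.0266). Its call was lost without the 2w, 4w, 5w or 6w library.

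The most abundant members were, by contrast, already high at 3w, and most did not pass the test. 1700017D01Rik, now Ms4a20, a member of the 4-pass membrane protein family that holds CD20, had 5.87, 11.8, 2440, 4583, 4838 and 4908 RPM from 1w to 6w. It was the highest member from 4w to 6w, and its 3 older libraries were all above the younger ones, but with 2440 RPM at 3w inside the younger set the log2 difference was 3.65 ± 2.21 (SE, edgeR adjusted p = 0.205). Pifo (1700027A23Rik) had 11.1, 66.1, 2082, 3350, 3239 and 3632 RPM, with an edgeR adjusted p of 0.169. The lncRNA 1700086L19Rik had 15.0, 13.0, 1787, 4101, 3888 and 4653 RPM, with an edgeR adjusted p of 0.151. Of the 5 NM and 5 NR members with most reads, 8 did not pass. DESeq2 called 4 of these 8, namely 1700017D01Rik (DESeq2 adjusted p = 0.0392), 1700027A23Rik (0.0288), 1700086L19Rik (0.0169) and 1700001L05Rik (0.0129). It did not call 1700108J01Rik (DESeq2 adjusted p = 0.168), and gave no adjusted p for 1700102P08Rik, 1700016M24Rik and 1700008K24Rik. Without the 3w library, edgeR called all 8. 1700017D01Rik, 1700027A23Rik and 1700086L19Rik together made up 34.7% of the summed RPM of all members at 6w.

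1700102P08Rik reached its highest value earlier, with 27.2, 567, 3076, 2675, 1822 and 1244 RPM. It was the highest member at 2w and 3w, and its sets overlap. 1700016M24Rik, now Mroh4, ran from 2.17 and 175 RPM to 1973 at 3w and then 1235, 898 and 612, so the 3w value is the highest and the sets overlap too. The noncoding 1700008K24Rik had 1504 RPM at 3w and 1127 to 1263 RPM in 4-6w, up from 4.78 at 1w and 96.8 at 2w. None of these 3 passed the test (edgeR adjusted p of 0.337, 0.517 and 0.292). 1700019N19Rik was later, with 3.04, 2.60, 123, 1187, 1552 and 1692 RPM, and rose by a log2 difference of 6.25 ± 1.88 (SE, edgeR adjusted p = 0.0399). This call was lost without the 1w, 2w, 4w, 5w or 6w library.

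1700108J01Rik stood at 155 RPM at 3w and 160 to 219 in 4-6w (edgeR adjusted p = 0.248), while 1700109G14Rik stood at 11.8 RPM at 3w and 126 to 234 in 4-6w and rose (log2 difference 6.54 ± 1.71, edgeR adjusted p = 0.0283). The call of 1700109G14Rik was lost without the 1w, 4w, 5w or 6w library.

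**Figure D3:**
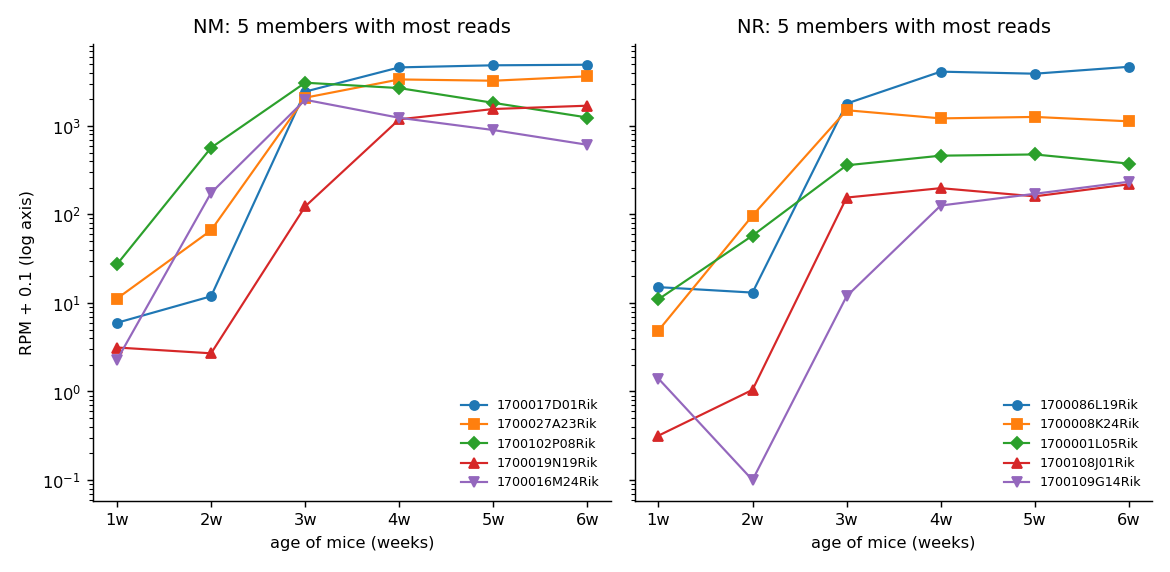
Level by age (horizontal axis, weeks) of the 5 NM members and the 5 NR members with most reads, as RPM + 0.1 on a log axis, with 1 library per point. At 3w 9 of the 10 genes are above 100 RPM, and 1700109G14Rik is at 11.8 RPM.

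Members with their highest level at 3w included a gene of meiotic cells. Majin (1700123I01Rik), which attaches telomeres to the nuclear envelope in meiosis, had 1.74, 10.4, 14.4, 8.42, 5.99 and 4.71 RPM. Shcbp1l (1700012A16Rik) had 15.4, 36.3, 289, 140, 97.6 and 56.4 RPM. Both are highest at 3w, with 2w next for Majin and 4w next for Shcbp1l, and neither passed the test (edgeR adjusted p of 0.406 and 0.537). Catsperz (1700019N12Rik), a subunit of the CatSper calcium channel of the sperm flagellum, had 3.70, 15.8, 1092, 1228, 981 and 864 RPM, and its highest value, at 4w, is close to that at 3w. Cfap206 (1700003M02Rik), a protein of cilia and flagella, was highest at 5w, with 1.52, 4.48, 234, 339, 377 and 317 RPM. Among noncoding members, 1700001G11Rik had its highest value at 4w, 77.5 RPM, which 6w matched at 77.1, and 1700001L05Rik at 5w, 476 RPM.

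Only 5 members were highest at 1w and 6 at 2w. Ccsap (1700054N08Rik), which binds centrioles, cilia and the spindle, had 290, 219, 104, 71.8, 66.4 and 54.1 RPM, with no overlap between the sets, and its TMM log2 difference was -0.29 ± 0.37 (SE, edgeR adjusted p = 0.517). 1700017B05Rik had 96.6, 62.1, 54.0, 30.6, 29.1 and 23.7 RPM and an edgeR adjusted p of 0.993. Both fell only when library totals set the scale. The conserved lncRNA Oip5os1 (1700020I14Rik), also known as Cyrano, had 13.0, 11.3, 4.35, 5.36, 6.66 and 9 RPM, and 1700013H16Rik, on X, had its highest level at 2w, 121 RPM, with 39.6 to 98.6 RPM at the other ages.

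Near-level RPM can give a call under TMM. Zfp974 (1700049G17Rik), a zinc finger gene, had 8.70, 8.26, 7.40, 7.27, 6.49 and 7 RPM, and its TMM log2 difference was 1.12 ± 0.28 (SE, edgeR adjusted p = 0.0268), against -0.23 on library totals. 1700034H15Rik, with 3.70 to 4.96 RPM at all ages, had 1.32 ± 0.29 (SE, edgeR adjusted p = 0.0206) and -0.03. Both calls mean a rise relative to the median gene, which had less RPM in 4-6w.

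Families among the members were read from the current symbols, after values had been seen. All 9 tested genes named Tex (testis expressed) rose, where 57.4% of the tested members and 17.7% of all genes did. For Tex30 (1700029F09Rik) the call was lost on library totals (log2 difference 0.78, edgeR adjusted p = 0.12) and without the 2w, 4w, 5w or 6w library. Tex44 (1700019O17Rik) and Tex35 (1700057K13Rik) were at 0 reads in each 1-3w library, and Tex37 had 1, 0 and 2 reads there. These genes passed the low-count filter only through 4-6w, so the count of Tex genes partly restates the filter. Tex33 (1700061J05Rik) had 0.652, 0.236, 13.5, 101, 101 and 125 RPM. Of 4 genes named Spata or Spaca (spermatogenesis or sperm acrosome associated), 3 rose, with Spaca9 (1700026L06Rik) at 1.30, 1.89 and 23.1 RPM in 1-3w and 164, 228 and 289 in 4-6w. Of 7 Cfap or Ift genes, which serve cilia and flagella, 2 rose, namely Cfap97d1 (1700006E09Rik) and Ift43 (1700019E19Rik). Ift43 was present in all libraries, at 86.5, 101, 209, 215, 193 and 229 RPM, and its sets overlap. Of 3 genes of histone-like proteins, H2bl1 (1700024P04Rik) and H2ap (1700054O13Rik) rose and H2bfm (1700014N06Rik) lay between 0.652 and 2.83 RPM (edgeR adjusted p = 0.0881). Among tested genes named Ccdc 1 of 5 rose, among those named Fam 4 of 7, and among those named Ms4a 0 of 2. Of 70 tested protein-coding genes that still have only a clone name, 47 rose, where 17.3% of all NM genes tested did. Of 36 lncRNAs, 19 rose, where 37.1% of all NR genes tested did.

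On the X chromosome, which is silenced in pachytene cells and remains partly so in spermatids, lie 9 members, of which 6 had 20 or more reads. The medians of these 6 were 1.30, 1.53 and 3.81 RPM in 1-3w and 41.3, 48.7 and 62.6 RPM in 4-6w. H2ap had 2.39, 0.236 and 4.79 RPM in 1-3w and 189, 384 and 704 in 4-6w, with a log2 difference of 8.76 ± 1.43 (SE, edgeR adjusted p = 0.0115). Samt3 (1700072E05Rik), with 0, 0 and 13 reads in 1-3w and 133, 185 and 313 in 4-6w, also rose (edgeR adjusted p = 0.021), as did 1700080O16Rik, 1700008I05Rik and 1700013H16Rik, so that 5 of the 6 rose, where 57.4% of the tested members and 17.7% of all genes did. For 1700013H16Rik, whose sets overlap, the call was lost on library totals (log2 difference 0.47, edgeR adjusted p = 0.44) and without the 1w, 4w, 5w or 6w library. Of the 6, 0 first reached 50% of their peak at 3w, 3 did at 4w, 1 at 5w and 2 at 2w, whereas 56 of all 199 members did at 3w. The 6 genes are too few to set X apart from the autosomes.

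The 3' ends of coding 1700-series genes were short, and many members had a single last-exon pA. Of the 199 members, 97 (48.7%) had a single last-exon pA, against 29.2% of all genes and 31.2% of NM genes of the second series. The median number of reads over all libraries was 899 for the 199 members and 369 for all genes. The most used pA lay a median of 155 nt after the stop codon in the 147 members where this distance could be given. Of these, 143 were NM (median 155 nt) and only 4 NR (336 nt). The median was 512 nt over all genes and 216 nt in NM genes of the second series. The most used pA was set by reads of all 6 libraries together, which in most members came mainly from 4-6w. The part of age in this contrast was not tested. In the most abundant coding members it was 123 nt (1700017D01Rik), 174 nt (1700027A23Rik), 312 nt (1700102P08Rik), 191 nt (1700019N19Rik) and 83 nt (1700016M24Rik). Where there were 2 or more last-exon pAs (102 members), the 2 most used lay a median of 165 nt apart in the genome, against 536 nt over all genes. The distance was 120 nt in NM and 698 nt in NR members. The most sites, 11, were found in the noncoding 1700052K11Rik.

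AATAAA was found in the 40 bases before the most used pA in 55.8% of members and 62.3% of all genes, ATTAAA alone in 15.6% and 16.4%, and neither in 28.6% and 21.3%. Neither was found in 39% of NR members and in 29.5% of all NR genes. Introns held a pA in 34.7% of members, against 42.3% of all genes.

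The median use of the distal site was lower at later ages in coding members, as over all genes. The medians of noncoding members showed no such course, but rest on few and changing genes, so they do not set the classes apart. The Dis-pA share is the reads at the Dis-pA over those at both sites, taken in each library for genes with 20 or more such reads. From 1w to 6w its median over members was 87.1% (24 genes), 86.2% (28), 73.9% (79), 47.8% (93), 42.6% (96) and 43.0% (98). In NM members it was 91.7, 88.0, 83.2, 49.1, 43.8 and 41.0% (19 to 77 genes). In NR members it was 18.6, 42.4, 42.4, 28.5, 41.4 and 50%, with 5 genes at 1w and 2w and 16 to 21 later. Over all genes it was 80.0, 79.6, 73.5, 53.8, 47.6 and 43.5%, and over all NR genes it was 84.9% at 1w and 66.7% at 6w. The genes that enter differ from week to week, since most members lack reads at 1w and 2w.

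The ratio of Dis-pA to Prx-pA reads could be tested in 21 members (18 NM and 3 NR) with 20 or more reads in every library. By edgeR's test over 4270 genes, the ratio fell in 11 (10 NM and 1 NR) and rose in 0, and 0 were higher at an unadjusted p under 0.05. In the background 34.4% fell and 1.31% rose. The median log2 difference of the 21 was -2.36, against -1.11 over all genes tested. It was -2.39 in the 18 NM and -2.04 in the 3 NR members. These 21 are the members that were expressed at every age and do not stand for the late genes that make up most of the series. With a minimum of 20 reads per age set instead, 83 members could be tested, of which 23 fell and 1 rose. The one that rose, named after its value was seen, was the noncoding 1700042G15Rik, with 0, 10 and 222 Prx-pA reads beside 0 Dis-pA reads in 1-3w and 167, 164 and 158 Prx-pA beside 10, 8 and 17 Dis-pA reads in 4-6w.

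The change was nearly complete in some members. 1700025G04Rik, whose 2 sites lie 159 and 809 nt after the stop codon, had 81, 65 and 35 Dis-pA reads beside 12, 16 and 2 Prx-pA reads in 1-3w. In 4-6w it had 19, 6 and 12 Dis-pA beside 89, 181 and 237 Prx-pA reads. The Dis-pA share was 87.1, 80.2 and 94.6% and then 17.6, 3.21 and 4.82%, and the log2 ratio fell by 6.40 ± 0.76 (SE, edgeR adjusted p = 2.1e-04). Both sites carry a signal in the sequences above, ATTAAA at the Prx-pA and AATAAA at the Dis-pA.

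Zfp974 (1700049G17Rik) had a Dis-pA share of 100, 100 and 87.9% in 1-3w and 20.6, 13.5 and 9.09% in 4-6w. Its Dis-pA lies 1349 nt after the stop codon and its Prx-pA 3475 nt upstream of that in the genome, where no distance from a stop codon could be given. Its counts were low, with 36, 35 and 33 reads at both sites in 1-3w and 34, 37 and 44 in 4-6w. At 6w the 95% Wilson interval of the share was 3.59 to 21.2%, and the log2 ratio fell by 7.16 ± 1.03 (SE, edgeR adjusted p = 5.4e-04). Its RPM was nearly level over the same ages, so reads at the 2 sites changed places at a near-constant total.

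1700013H16Rik had 173, 502 and 188 Dis-pA reads beside 3, 1 and 8 Prx-pA reads in 1-3w, and then 212, 214 and 258 beside 150, 192 and 223. The share went from 95.9% or more to 52.7 to 58.6%, and the log2 ratio fell by 5.70 ± 0.74 (SE, edgeR adjusted p = 3.2e-04). The sites lie 97 nt apart, at 169 and 266 nt after the stop codon. Ccsap (1700054N08Rik) had 0 Prx-pA reads in 2740 at both sites in 1-3w, a count of 0 that sets a limit of 0.109% on the Prx-pA share, and 46, 95 and 155 Prx-pA reads in 4-6w (edgeR adjusted p = 2.2e-04). Its sites end 3'UTRs of 232 and 1511 nt, and both the Dis-pA reads and the total were lower in each later library.

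The remaining changes were more gradual. 1700017B05Rik had a share of 92.6, 82.8, 46.6, 31.5, 18.6 and 18.2% from 1w to 6w, with its sites at 406 and 845 nt, and its log2 ratio fell by 3.70 ± 0.89 (SE, edgeR adjusted p = 0.00891). Tex30 (1700029F09Rik) had 84.8, 88.0, 83.2, 50.4, 22.4 and 26.8%, with sites at 30 and 277 nt and an edgeR adjusted p of 7.6e-04. Armt1 (1700052N19Rik), a protein carboxyl methyltransferase gene, had 87.1, 90.3, 71.2, 49.1, 41.1 and 33.3% (edgeR adjusted p = 0.00269). In 1700037H04Rik the log2 ratio fell by 3.88 ± 0.73 (SE, edgeR adjusted p = 0.00239), but the share moved only from 99.9% over 1-3w to 98.8% over 4-6w, with 13, 11 and 11 Prx-pA reads at 4w to 6w. The other 3 members whose ratio fell were 1700066M21Rik (41.5% over 1-3w and 14.1% over 4-6w), 1700094D03Rik (12.4 and 2.52%) and the noncoding 1700001L05Rik (8.02 and 2.99%), in which the Prx-pA already held most reads. Of the 11, 9 fell also without each library in turn, the exceptions being 1700001L05Rik and 1700094D03Rik.

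Of the members with too few reads at 1w or 2w to be tested, 1700019N19Rik and Scp2d1 (1700010M22Rik) had most reads at both sites. From 3w to 6w the Dis-pA share of 1700019N19Rik was 98.4, 96.6, 96.5 and 95.9%, with sites 53 nt apart. That of Scp2d1, which encodes a protein with a sterol carrier domain, was 65.4, 66.0, 63.8 and 61.7%, with sites at 98 and 195 nt after the stop codon. In both genes the share was close to level over the ages at which they were expressed.

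**Figure D4:**
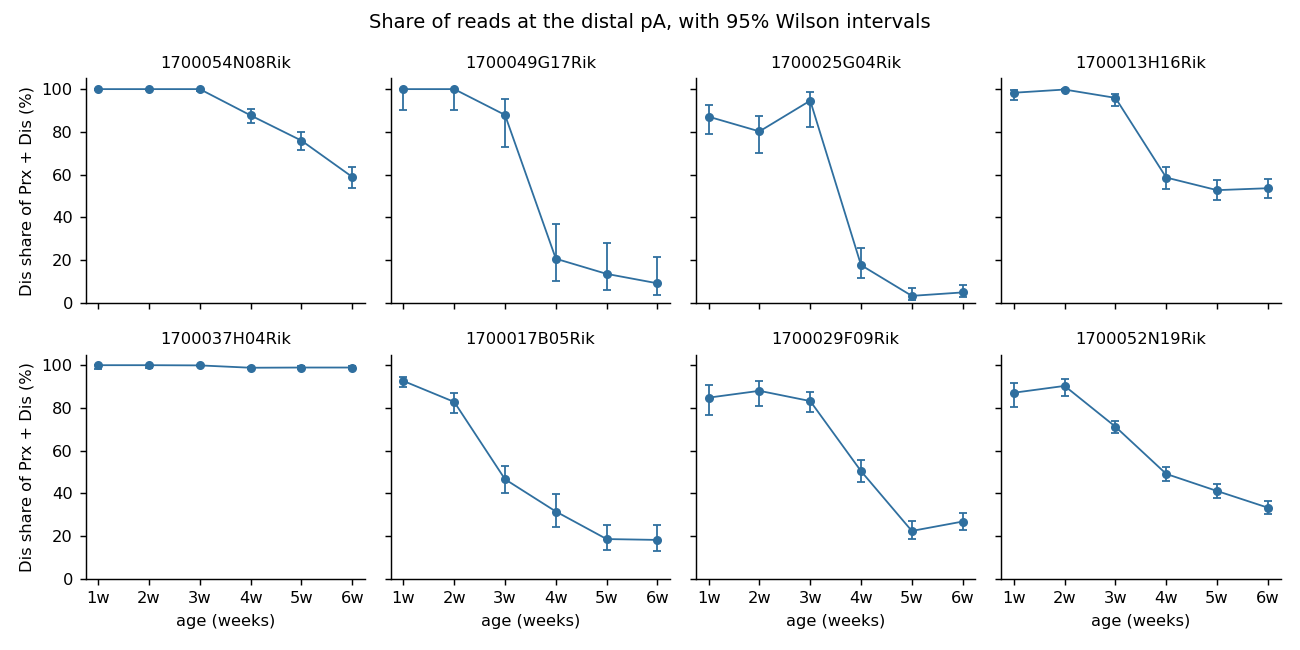
Dis-pA share of Prx-pA plus Dis-pA reads (vertical axis, percent) against age in weeks for the 8 members with the largest fall in the log2 ratio; points are single libraries and bars are 95% Wilson intervals, which cover counting error only. In 1700025G04Rik and 1700049G17Rik the share is 80.2% or more in 1-3w and 20.6% or less in 4-6w, while in 1700037H04Rik it stays at 98.8% or more.

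Sites upstream of the last exon, in introns and upstream exons, took 2.01, 2.80, 2.23, 1.70, 1.61 and 1.67% of the members' sense reads from the first to the last week. Over all genes the share was 2.23% in the first and 2.93% in the last. The ratio of reads at these sites to last-exon reads was tested in 14 members, of which 1 fell and 0 rose (0 higher at an unadjusted p under 0.05), where 20.8% of the 2437 genes tested rose and 4.19% fell. The one that fell was 1700102P08Rik, with 4, 20, 32, 14, 11 and 9 such reads from 1w to 6w beside 125, 2402, 14129, 13981, 10945 and 8706 last-exon reads (log2 difference -2.77 ± 0.93, SE, edgeR adjusted p = 0.0427). The call was lost without the 1w, 2w, 4w, 5w or 6w library, with an edgeR adjusted p of up to 0.148.

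Transcripts that run from the promoter in the opposite direction were detected by their own pAs. Of the 199 members, 54 (27.1%) had an upstream antisense pA, against 31.9% of all genes. Antisense reads of all members summed to 92, 77 and 203 in 1-3w and to 450, 534 and 808 in 4-6w. Scaled to RPM, these sums went from 20 in the first library to 115 in the last. Such reads rose over all genes too, from 4449 to 22274 RPM between the same libraries. Among members, Fam186a (1700030F18Rik) had the most, with 1, 0 and 38 antisense reads in 1-3w and 65, 57 and 72 in 4-6w. Beside these it had 179 last-exon reads over 1-3w and 349, 358 and 537 in the later libraries. 1700008O03Rik had 0, 1, 26, 32, 41 and 79 antisense reads from 1w to 6w but only 1, 0, 3, 13, 5 and 11 last-exon reads. The antisense reads exceeded these in each library from 2w on, though at 2w it also had 2 sense reads in an intron. 1700011L22Rik had 0, 0, 10, 36, 38 and 82 antisense reads beside 2, 0, 60, 489, 655 and 991 sense reads. Reads of another gene that ends in the same window could be among them, which was not tested.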

How the data were processed

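Testis RNA of FVB mice was profiled by 3'READS in 6 libraries, 1 per week of age. The authors aligned reads to mm9 with Bowtie 2 (version not given in the sources used here), kept reads with at least 2 unaligned Ts from the poly(A) tail, clustered cleavage positions within 24 nt, and deposited raw counts of these reads per pA and library. The counts are not normalized.

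Reads of last-exon pAs were summed per gene, and 1053 entries were dropped because their pA belongs to several genes. RPM used the library totals that the study lists; reads of single genes in the table are 77.0 to 83.3% of them. Period 4-6w was set against 1-3w with edgeR 4.0.16 (R 4.3.3) quasi-likelihood fits over all genes, TMM scaling, filterByExpr and Benjamini-Hochberg adjustment at 0.05. The pA ratios were tested as a pA by period term with at least 20 reads per gene and library, and, for sites upstream of the last exon, at least 5 reads at those. The smallest two-sided exact permutation p for 3 against 3 is 0.1, so no such test was used. SE is the log2 difference over the square root of F. DESeq2 1.42.0, other scalings, filters and each library left out served as alternatives. Fits were tested on simulated data. Wilson and counting intervals cover counting error only, since reads carry no molecular identifiers.

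Genes are named by rule, namely the 5 called NM and NR members with the largest change, the 5 of each with most reads, those with most reads among members peaking in each week, the 8 largest falls of the pA ratio, called changes upstream of the last exon, the 3 with most antisense reads, and the 2 with most reads at both pAs among those with too few reads at some age to be tested. Genes named for a current symbol, for X or for other reasons were chosen after their values were seen. The members and lists were chosen with earlier results of these data known. Distances to stop codons come from the GENCODE annotation of the same build, and current symbols from RefSeq GRCm38.p6. Genes on overlapping loci can share reads.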

Additional observations from a re-analysis of the deposited data

How the results depend on the processing

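With library totals in place of TMM, 3 members were lower in 4-6w in place of 0, and with shared pAs counted 1 was. Leaving out each library in turn gave 18 to 187 members higher and 0 lower. For the Dis-pA to Prx-pA ratio, a minimum of 20 reads per period gave 23 lower and 1 higher of 83 members tested, a minimum of 50 reads per library gave 7 lower of 13, and leaving out libraries gave 10 to 15 lower and 0 higher. For sites upstream of the last exon, a minimum of 20 reads per period gave 6 lower and 1 higher of 57, DESeq2 gave 2 lower, and leaving out libraries gave 0 to 4 lower and 0 higher. The log2 expression difference of 1700017B05Rik, close to 0, turned to 0.14 with DESeq2, to 0.04 without the low-count filter, and lay between -0.16 and 0.24 with libraries left out. On library totals 1700020I14Rik, 1700034H15Rik and 1700049G17Rik turned to -0.45, -0.03 and -0.23. The cause was not tested. Counts of members peaking in each week moved by 2 or fewer with another total, and were within 1.5 times with a minimum of 100 reads. Few reads of most members at 1w and 2w, where library depth was like that at 3w, limit what can be said of their pA use there.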
